A study of Homo sapiens with 12 samples.

Results

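Broad H3K4me3 domains were the H3K4me3 regions of 5000 bp or wider on chromosomes 1 to 22 and X, and were chosen by that width alone from 1 merged list of RT112 cells. They numbered 728 of 9765 H3K4me3 regions, which is 7.46% of the regions and 14.35% of the bases under H3K4me3. RT112 is an established human line from a transitional cell carcinoma of the bladder, described by the study as wild type for ARID1A, a DNA-binding subunit of SWI/SNF, a complex that remodels chromatin. The study used CUT&RUN, in which an antibody brings a nuclease to its target in permeabilised cells and the released fragments are sequenced, with 2 antibodies against ARID1A (from Abcam and from Cell Signaling Technology, CST), an antibody against H3K4me3 and IgG as the control. Each of these 4 groups had 3 replicates, 12 samples in all, and regions were available as 1 merged list for Abcam, CST and H3K4me3. A merged list has no replicate error and no signal value, so the data below are positions, counts and widths, and IgG regions, single replicates and sequencing depth were not analysed here.

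Trimethylation of lysine 4 on histone H3 is placed by SET1 and MLL (COMPASS) methyltransferases at the start of active genes, usually as a narrow block over the first nucleosomes of the gene. In many cell types a minority of genes carry it over a much longer stretch into the gene body, and such broad domains are known to lie often at genes that define the cell type, at tumour suppressor genes and at strongly and steadily transcribed genes. SWI/SNF moves and evicts nucleosomes at promoters and enhancers, and ARID1A is the subunit that marks its BAF form. In the urothelium, GATA3, PPARG, FOXA1, ELF3 and GRHL factors are known regulators of the luminal state, and simple-epithelium keratins are among its structural markers.

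The sequences shown here are windows of 200 bp on the plus strand of hg38 from the domains that the results turn on. The first 3 are the centres of the widest stretch covered by both ARID1A antibodies in the domains of the luminal genes GATA3, FOXA1 and KRT19. Capitals mark any of 11 short words looked for on both strands, of which those found here were KLF/SP (GGGCGG), NFY (CCAAT), AP-1 (TGANTCA), E-box (CACGTG) and ETS (CCGGAAG). The GATA3 window, chr10:8053606-8053805, began just after an annotated start of GATA3 at 8053604 and lay over 173 exonic and 27 intronic bases. The FOXA1 window, chr14:37595783-37595982, was exonic and lay 254 bp downstream of the start of TTC6, the neighbour on the other strand. The KRT19 window, chr17:41522501-41522700, spanned the start of KRT15, which shares the domain, with 29 exonic and 171 intergenic bases. The last 2 windows are centred on the most upstream start of RPS2, chr16:1964741-1964940, and of DALRD3, chr3:49022193-49022392, whose domains had no ARID1A region of either antibody.
GATA3: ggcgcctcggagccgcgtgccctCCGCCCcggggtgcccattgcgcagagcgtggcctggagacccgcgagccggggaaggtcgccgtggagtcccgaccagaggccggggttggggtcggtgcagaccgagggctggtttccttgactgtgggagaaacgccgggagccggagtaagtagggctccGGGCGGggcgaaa
FOXA1: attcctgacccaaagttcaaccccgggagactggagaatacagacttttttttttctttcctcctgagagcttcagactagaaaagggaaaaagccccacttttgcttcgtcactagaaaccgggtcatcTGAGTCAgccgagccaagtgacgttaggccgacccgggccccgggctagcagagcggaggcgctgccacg
KRT19: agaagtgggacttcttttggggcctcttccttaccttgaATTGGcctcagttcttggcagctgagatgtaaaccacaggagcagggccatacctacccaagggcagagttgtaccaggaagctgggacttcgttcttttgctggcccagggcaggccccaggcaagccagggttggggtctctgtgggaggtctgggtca
RPS2: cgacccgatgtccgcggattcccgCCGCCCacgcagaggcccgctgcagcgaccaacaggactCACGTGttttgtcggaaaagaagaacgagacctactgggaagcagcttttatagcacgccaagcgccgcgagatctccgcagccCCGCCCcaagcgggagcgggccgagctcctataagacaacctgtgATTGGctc
DALRD3: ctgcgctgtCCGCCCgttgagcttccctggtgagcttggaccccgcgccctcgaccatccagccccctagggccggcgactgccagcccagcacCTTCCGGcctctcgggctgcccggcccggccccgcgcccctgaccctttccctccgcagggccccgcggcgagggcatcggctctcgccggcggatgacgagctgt
The GATA3 window held 2 KLF/SP words, the FOXA1 window 1 AP-1 word at position 131 and the KRT19 window 1 NFY word at position 40, counted from the 5′ end. The RPS2 window held 2 KLF/SP words, 1 E-box and 1 NFY word, and the DALRD3 window 1 KLF/SP and 1 ETS word. Of 903 windows of this length with both antibodies in broad domains, 35.3% held KLF/SP, 22.04% NFY, 7.09% AP-1, 4.32% an E-box and 3.65% ETS. Of the 6 luminal windows read in this way 5 held a word, and the 3 shown are among those 5, so they do not stand for windows without a word. A word in a window is a match of letters, not a binding site.

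Domain width had a median of 5820 bp, a mean of 6310 bp and a maximum of 21817 bp, and the 9037 narrower H3K4me3 regions had a median of 2956 bp. Just inside the threshold lay the domains of C15orf39 (5002 bp), H2AC17 and H2BC17 (5002 bp) and CCDC85C (5004 bp), and just outside it those of VPS35 and ORC6, of ELL2 and of GLI3 (4998 bp each). Each of these 6 had 1 Abcam and 1 CST region. Only 29 domains reached 10000 bp, 43 had 8000 to under 10000 bp, 243 had 6000 to under 8000 bp and 413 had 5000 to under 6000 bp.

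The widest domain, 21817 bp at chr17:48597023-48618839, held the starts of HOXB6, HOXB7 and HOXB8, homeobox transcription factors of body-axis patterning. Abcam covered 20.3% of it in 2 regions and CST 6.45% in 1 region. The next was PLEC, the gene of the cytoskeletal linker plectin, at chr8:143935127-143954383 with 19257 bp, and there Abcam covered 93.8% in 2 regions and CST 89.6% in 5. The 2 widest domains thus had very different ARID1A coverage. GATA3, a zinc-finger factor of the luminal urothelium, came next with 18364 bp at chr10:8044527-8062890, and 1 region of each antibody covered 13.5% (Abcam) and 11.1% (CST) of it. NR2F2, an orphan nuclear receptor gene, had 12474 bp with 27.7% under Abcam and 13.7% under CST. ELF3, an epithelial ETS factor, had 12433 bp with 62.1% under Abcam and 53.7% under CST. PTGER4, the gene of a prostaglandin E2 receptor, had 12184 bp with 74.2% and 72.9%. BCL9L, a Wnt pathway coactivator, had 11708 bp with 91.8% and 65.6%, and LAMA5, a laminin chain of the basement membrane, had 11215 bp with 59.6% and 60.4%. The domain with TNRC18 had 13394 bp, that of CDKN1B, an inhibitor of cyclin-dependent kinases, and APOLD1 11710 bp, and the MALAT1 locus, a nuclear long noncoding RNA with no protein-coding start in the domain, 11926 bp. In the 29 domains of 10000 bp or wider, both antibodies covered less than 20% in 5 and 50% or more in 8, so width did not fix coverage.

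**Figure D1:**
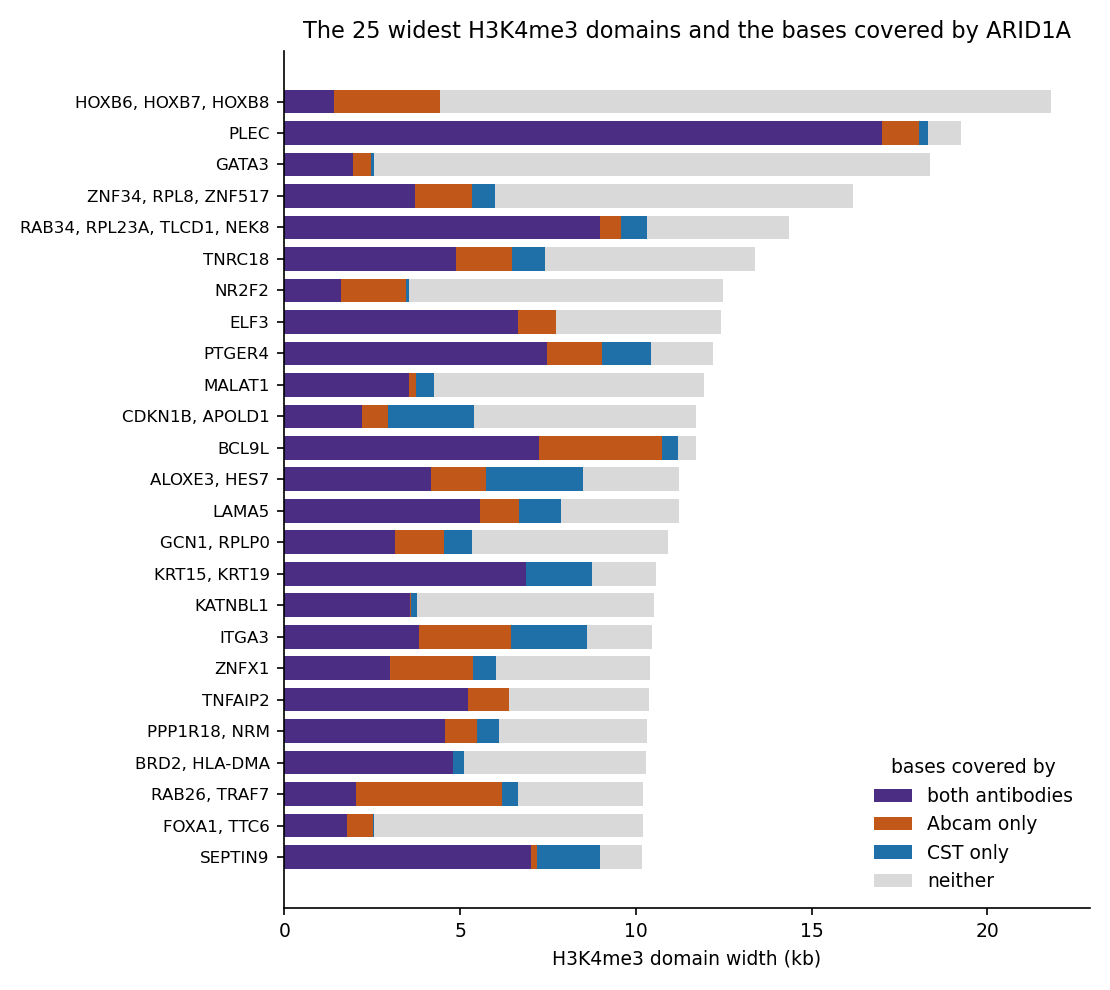
The 25 widest H3K4me3 domains, widest at the top, with width in kb on the x axis and each bar split into the bases covered by both ARID1A antibodies, by Abcam only, by CST only and by neither. The HOXB (21817 bp) and GATA3 (18364 bp) domains are mostly uncovered, whereas the PLEC domain (19257 bp) has 88.3% under both antibodies.

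The broad domains held starts of 870 protein-coding genes, 4.51% of the 19279 annotated on these chromosomes, where a start (TSS) is the first base of any protein-coding transcript. A protein-coding TSS lay in 680 domains (93.4%, exact 95% interval 91.4 to 95.1), against 93.5% of narrower regions and 93.5% of all H3K4me3 regions. The share with a gene was thus close to that of all H3K4me3 regions, and the share with several was not. Of the 728, 503 had the TSSs of 1 gene, 160 of 2 genes, 13 of 3 genes and 4 of 4 genes. In all, 177 (24.3%, 21.2 to 27.6) had 2 or more genes, against 14.0% of narrower regions and 14.8% of all H3K4me3 regions, and 17 (2.34%) had 3 or more, against 0.277% of narrower regions. A wider region has more room for a TSS, and the part of room alone was not tested.

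Domains with 2 genes were sorted by strand and by the order of the most upstream TSS of each gene. By that order 87 were divergent pairs, with a median distance between these TSSs of 352 bp. Another 46 were ordered as convergent (872.5 bp) and 27 lay on the same strand (3234 bp). In a divergent pair the genes run away from each other from a shared promoter region, and these made up at least 87 of the 160. The convergent class also took in pairs that run apart but whose starts interleave, such as HSPD1 with HSPE1 and HNRNPA2B1 with CBX3. Same-strand pairs lay in the widest domains of the 3 kinds, at a median of 6632 bp, where divergent pairs had 5611 bp and convergent pairs 5808 bp. The KRT15 and KRT19 domain was a same-strand pair with 5779 bp between the starts, and that of CDKN1B and APOLD1 one with 8563 bp.

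Domains with 4 genes were those of RAB34, RPL23A, TLCD1 and NEK8 (14367 bp, 62.4% covered by both antibodies), of H2BC21, H2AC20, BOLA1 and H2AC21 (5758 bp, 57.2%), of CLDN6, TNFRSF12A, HCFC1R1 and THOC6 (5385 bp, 91.6%) and of ZFTRAF1, TMEM276, KIFC2 and a gene known only as ENSG00000291316 (7926 bp, 43.2%). RPL23A is a ribosomal protein, NEK8 a kinase of the primary cilium, CLDN6 a tight junction claudin and TNFRSF12A the receptor of the cytokine TWEAK. Among the 13 with 3 genes were ZNF34, RPL8 and ZNF517 (16184 bp) and METTL23, MFSD11 and the splicing factor gene SRSF2 (7353 bp). A whole gene body lay inside 96 domains (13.2%), 110 bodies in all, against 1.59% of narrower regions. Regions chosen for width have more room for a whole gene, and the part of room alone was not tested. HOXB8, ELF3, RPL8, RPLP0 and KRT19 were among the genes covered from end to end. The genes of broad domains were shorter, with a median of 20510 bp, than those of narrower regions (35340 bp).

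Noncoding genes lay in a larger share of broad domains than of narrower regions, and here too the part of room alone was not tested. A long noncoding RNA started in 310 domains (42.6%, against 25.9% of narrower regions) and a microRNA gene lay in 36 (4.95%, against 1.55%). The 48 domains without a protein-coding TSS included 31 with a long noncoding RNA TSS, and 16 had neither a long noncoding RNA TSS nor a microRNA. The widest were the MALAT1 locus (11926 bp), NEAT1, the scaffold RNA of nuclear paraspeckles (8778 bp, 49.7% covered by both antibodies), an unnamed locus on chromosome 7 (7549 bp), the LINC01962 and TRIM7-AS2 locus (7439 bp) and a region on chromosome 1 at 235669540-235676741 with no annotated start (7202 bp). Chosen after their values were seen, the host loci of epithelial microRNAs were also in this group: MIR205HG with MIR205 (6815 bp, 69.3% covered by both), MIR21 (6729 bp, 38.4%) and MIR200CHG with MIR200C and MIR141 (5698 bp, 33.7%). Of the 48, 38 had regions of both antibodies, a share of 79.2%, against 90.1% of the domains with 1 gene.

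Genes of cell identity were compared through lists, each read as the share of its genes with a TSS in a broad domain, beside 4.51% of all protein-coding genes. A width or coverage given for a list gene is that of its whole domain, which can hold the starts of other genes too. Of the 10165 genes with H3K4me3, 8.56% had a broad domain. Counted in the same way over their genes with H3K4me3, the shares were 6.67% for proteasome, 12.5% for cell cycle and 15% for PI3K and AKT genes, near that of all genes for lists of this size, and 66.7% for luminal factors. High shares were not confined to luminal factors. They were 50% for luminal markers, 45% for YAP and immediate early targets and 44.7% for replication-dependent histone genes. Tumour suppressor genes had 33.3%, SWI/SNF genes 29.6% and ZNF genes 3.77%. The luminal urothelial transcription factors had the highest share of the 24 lists, 12 of 20 (60.0%, 36.1 to 80.9). The lists were chosen with earlier results of these data known, so this rank and the intervals are descriptions only. In order of width these were GATA3 (18364 bp), ELF3 (12433 bp), FOXA1 (10191 bp), GRHL2 (7770 bp), TBX3 (7618 bp), RXRA (7343 bp), TFAP2A (6370 bp), PPARG (6078 bp), FOXQ1 (5810 bp), KLF5 (5637 bp), OVOL1 (5471 bp) and EHF (5331 bp). Narrower regions only lay at 6, among them GRHL3 (3462 bp), KLF4, RARG, TFAP2C and TBX2 (4664 bp), and ZNF750 was among those with none. Thus 18 of the 20 carried the mark, and 12 of these carried it broadly. PPARG and RXRA form the nuclear receptor pair that drives luminal differentiation, and FOXA1 is its pioneer factor.

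The luminal urothelial markers had 8 of 26 in broad domains (30.8%, 14.3 to 51.8), among them the keratin genes KRT19 (10560 bp), KRT8 and KRT18, which share a domain (8371 bp), and KRT7 (7509 bp), the surface antigen gene PSCA (5647 bp), the tight junction gene CLDN4 (6817 bp) and the receptor gene FGFR3 (6051 bp). CDH1, CLDN7, EPCAM and ERBB2 had narrower regions only, with 2347 bp at CDH1, the E-cadherin gene. CLDN3, CYP4B1, KRT20 and MUC1 had none, and neither did the uroplakin genes UPK1A, UPK2 and UPK3A of umbrella cells. Over the whole list 16 of 26 had H3K4me3, where 10165 of all 19279 genes did, and the keratins and uroplakins were singled out after their values were seen.

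Markers of other cell types were mostly unmarked. No gene of the mesenchymal and fibroblast list (20 genes, which allows a share of up to 16.8%), the immune list (20, up to 16.8%), the endothelial list (12, up to 26.5%), the hepatocyte list (20, up to 16.8%), the muscle list (18, up to 18.5%) or the olfactory receptor family (381, up to 0.964%) had a broad domain, and the immune, hepatocyte and olfactory lists had no H3K4me3 region at all. The basal and squamous list had 1 of 20 (5.00%), LAMB3, a chain of laminin 332 (5166 bp). CD44, CDH3, COL17A1 and EGFR had narrower regions, with 4923 bp at EGFR, and DSC3, DSG3, KRT14 and KRT16 had none. The neuronal list had 1 of 20, TUBB3, a tubulin gene (5888 bp).

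**Figure D2:**
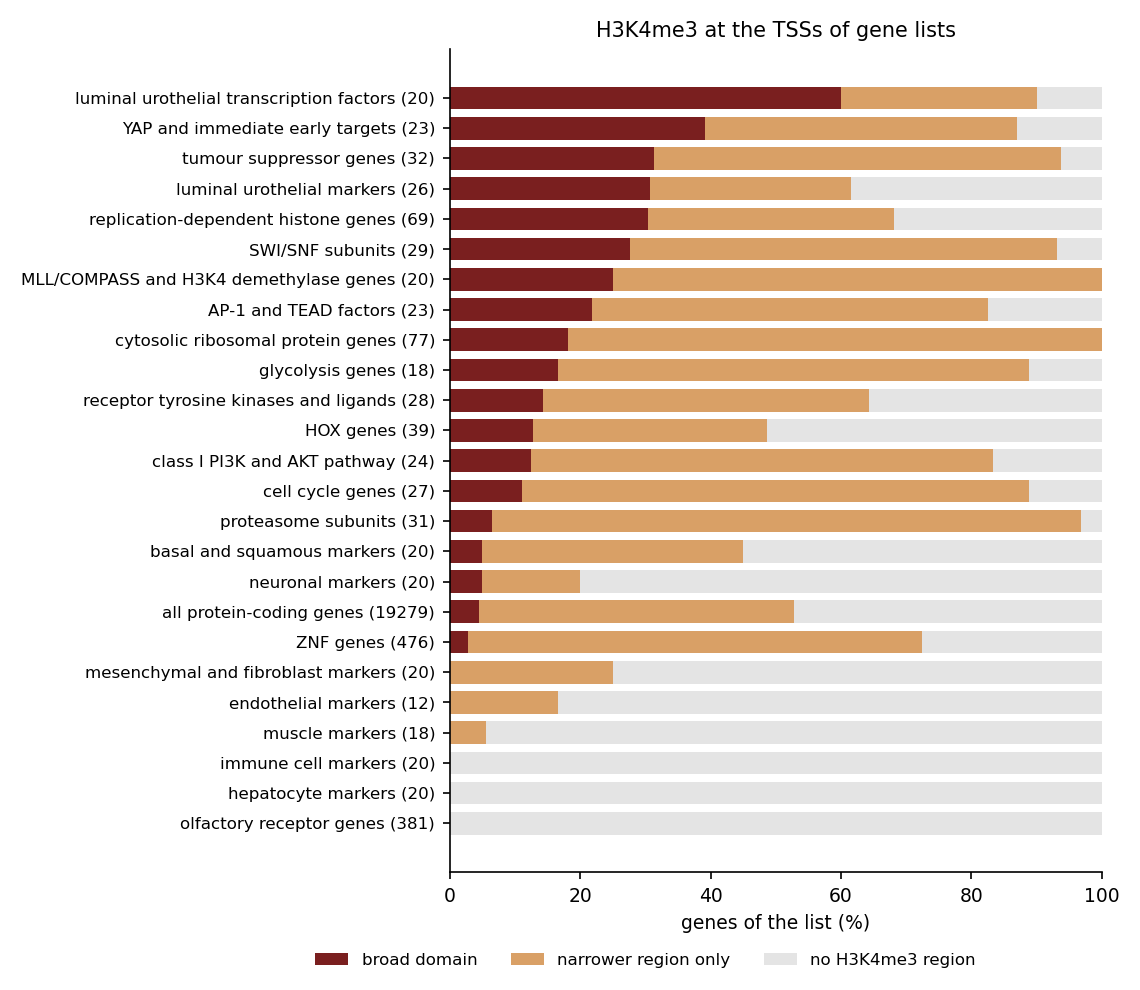
Share of the genes of each list (number of genes in brackets) with a TSS in a broad H3K4me3 domain, in a narrower H3K4me3 region only, or in none, as percent of the list, ordered by the first share. Luminal urothelial transcription factors reach 60.0% in broad domains and all protein-coding genes 4.51%, while immune and hepatocyte markers have no H3K4me3 region.

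Among the signalling lists, YAP and immediate early targets had 9 of 23 in broad domains (39.1%, 19.7 to 61.5). They included the growth factor response genes DUSP6 (8391 bp), IER2 (8114 bp), MYC (7289 bp), SPRY2 (7020 bp) and IER5 (6915 bp) and the LIM protein gene AJUBA (8064 bp). AMOTL2, CCN1, DUSP1 and EGR1 had narrower regions, and ANKRD1, CCN2 and EGR3 none. Of the AP-1 and TEAD factors 5 of 23 (21.7%, 7.46 to 43.7) had a broad domain, FOSL2 (8171 bp), JUNB (7295 bp), ATF3 (6293 bp), JUN (5555 bp) and FOS (5319 bp), and all 5 were AP-1 or ATF genes, whereas TEAD1 had 4314 bp. Of the receptor tyrosine kinases and ligands 4 of 28 (14.3%) had one, EPHA2 (6394 bp), IGF1R (6326 bp), FGFR3 (6051 bp) and DDR1 (5125 bp). TACC3, a spindle gene near FGFR3 on chromosome 4 that was chosen after its values were seen, had starts in 2 separate broad domains of 5533 and 5452 bp. Of the class I PI3K and AKT pathway 3 of 24 (12.5%) had one, among them the forkhead factor genes FOXO3 (6953 bp) and FOXO1 (5517 bp), whose products AKT restrains, and AKT1, AKT2 and INPP4B had narrower regions.

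Tumour suppressor genes had 10 of 32 in broad domains (31.2%, 16.1 to 50.01). They included ELF3 (12433 bp), the kinase inhibitor genes CDKN1B (11710 bp) and CDKN1A (8263 bp), the cadherin FAT1 (8323 bp) and ARID1A itself (7085 bp). APC, ATM, BAP1 and BRCA1 had narrower regions, and CDKN2A and CDKN2B had none. SWI/SNF subunit genes had 8 of 29 (27.6%, 12.7 to 47.2), led by ACTB (8115 bp), ARID2 (7338 bp), ARID1A (7085 bp), BRD9 (5925 bp), SMARCA2 (5760 bp) and BCL7C (5548 bp), with ACTL6A, BCL7A, BCL7B and BICRA among those with narrower regions. Genes of the MLL/COMPASS complexes and H3K4 demethylases had 5 of 20 (25%), KDM5B (7647 bp), HCFC1 (6081 bp), SETD1B (5934 bp), KMT2A (5178 bp) and KMT2D (5082 bp). The mark was therefore broad at genes of enzymes that write it and at 1 gene of an enzyme that removes it, KDM5B.

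Cytosolic ribosomal protein genes all had H3K4me3, and 14 of 77 had a broad domain (18.2%, 10.3 to 28.6), in order RPL8 (16184 bp), RPL23A (14367 bp), RPLP0 (10913 bp), RPS2 (8989 bp), RPS18 (8875 bp) and RPL7 (6755 bp). Each of the domains named here also held the start of another protein-coding gene. Replication-dependent histone genes had 21 of 69 (30.4%, 19.9 to 42.7), but these lay in only 9 domains, such as that of H2BC10 and H3C8 (7116 bp), so the genes are not separate cases, and near-identical histone genes lose reads that map to several places. Glycolysis genes had 3 of 18 (16.7%, 3.58 to 41.4), PKM (7520 bp), GAPDH (6666 bp) and SLC2A1 (5032 bp), and cell cycle genes 3 of 27 (11.1%, 2.35 to 29.2), CCND1 (6678 bp), CDK6 (5938 bp) and PCNA (5210 bp). Proteasome subunit genes had 2 of 31 (6.45%, 0.791 to 21.4), PSMB3 (10028 bp) and PSMA7 (5361 bp), each beside another gene. The intervals of the ribosomal, glycolysis, cell cycle and proteasome lists overlap, and no difference between them was tested. ZNF genes had 13 of 476 (2.73%) and HOX genes 5 of 39, among them HOXB6, HOXB7 and HOXB8 in the widest domain of all and HOXA3 (6449 bp).

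ARID1A regions overlapped nearly all broad domains. An Abcam region lay in 686 of 728 (94.2%, 92.3 to 95.8), against 73.3% of narrower regions and 74.9% of all H3K4me3 regions. A CST region lay in 662 (90.9%, 88.6 to 92.9), against 65.1% of narrower and 67.1% of all. Regions of both antibodies lay in 647 (88.9%, 86.4 to 91.1), against 59.9% of narrower and 62.1% of all. Neither antibody had a region in 27 (3.71%), against 21.5% of narrower and 20.1% of all, and 39 had Abcam only and 15 CST only. The share with both antibodies climbed with width class, at 41.1% of regions under 2000 bp, 53.4% from 2000 bp, 65.6% from 3000 bp, 77.9% from 4000 bp, 87.2% from 5000 bp, 89.3% from 6000 bp, 95.3% from 8000 bp and 100% of the 29 of 10000 bp or wider (88.1 to 100), each class ending where the next begins. The climb began well below 5000 bp. A wider region has more bases that a region can touch, and that part of the climb cannot be told apart from the rest in these lists.

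Broad domains often held several ARID1A regions. Mean numbers were 1.31 Abcam and 1.30 CST regions per domain, against 0.760 and 0.679 in narrower regions, and 2 or more regions lay in 237 domains for Abcam (32.6%, against 2.60% of narrower regions) and in 242 for CST (33.2%, against 2.73%). Per 10 kb of domain the order turned round, with 2.08 Abcam and 2.05 CST regions in broad domains against 2.51 and 2.24 in narrower regions. The antibodies had the same number of regions in 489 domains (67.2%). Counting both antibodies, 15 domains had 6 or more regions. S100A16 with S100A14, calcium-binding proteins of epithelia, had the most, 4 Abcam and 4 CST regions in 9868 bp. PLEC had 2 and 5, and LAMA5 had 3 and 4. PTCH1, the Hedgehog receptor gene, had 4 Abcam and 2 CST regions in 8279 bp, and CDKN1A, the gene of the kinase inhibitor p21, had 3 and 3 in 8263 bp.

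**Figure D3:**
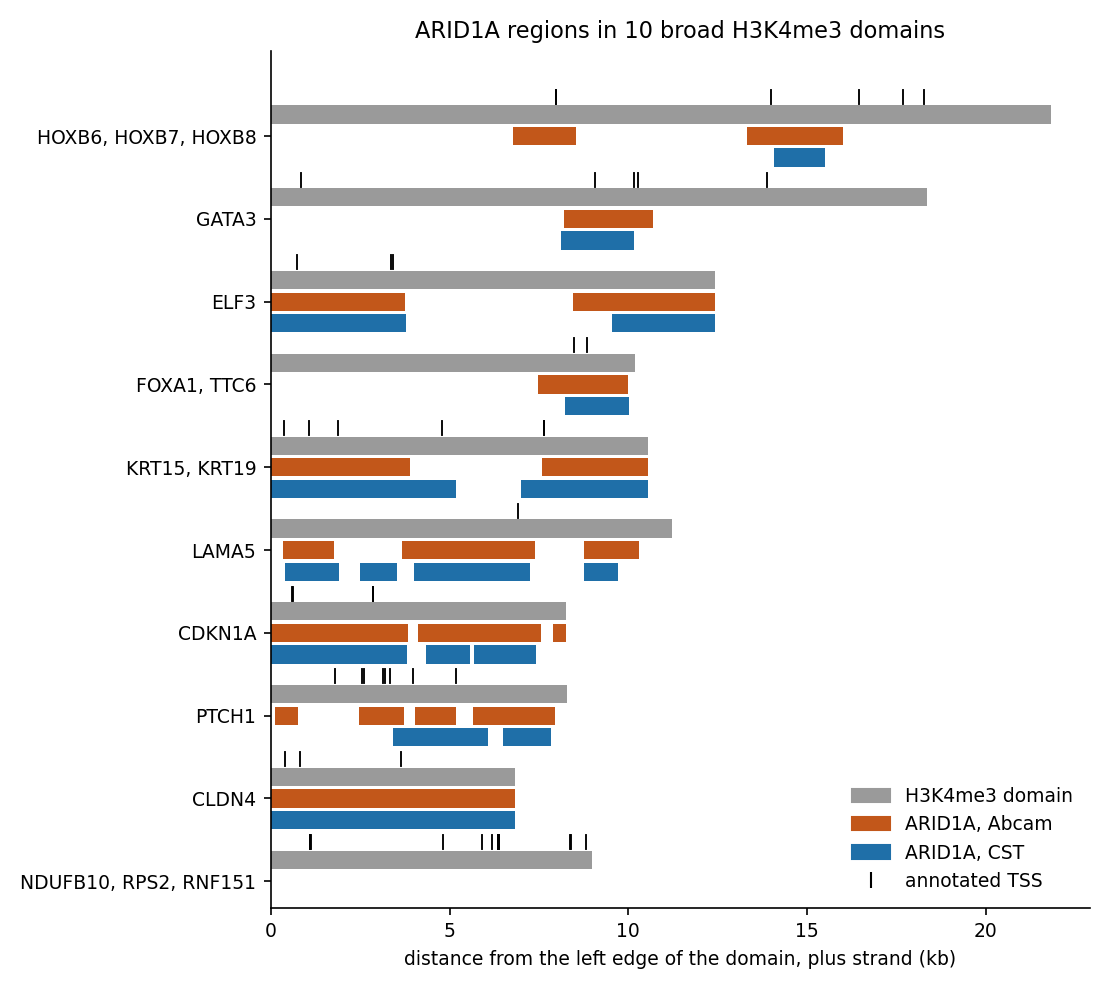
Maps of 10 H3K4me3 domains drawn to scale from their left edge on the plus strand, in kb, with the ARID1A regions of Abcam and CST clipped to the domain and annotated protein-coding TSSs as ticks above each bar. GATA3 has 1 region of each antibody in 18364 bp, CDKN1A has 3 of each in 8263 bp, CLDN4 is covered throughout (100%) and the RPS2 domain has none.

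Where the regions lay within a domain differed by gene. In the GATA3 domain the Abcam region at chr10:8052727-8055203 lay over the starts at 8053604, 8054688 and 8054810, and the CST region at chr10:8052655-8054685 over the first of these. The most upstream GATA3 start, at 8045378, and the rest of the domain were outside both. In the ELF3 domain, 1 region of each antibody lay over all 3 annotated starts and another towards and past its 3′ end at 202017183, from 202015680 (Abcam) and 202016747 (CST) to beyond the edge of the domain. The KRT15 and KRT19 domain had the same arrangement, with regions of both antibodies at either edge, of which 1 pair reached the KRT19 starts at 41528299 and 41528308. In the FOXA1 domain the regions sat at the promoter end, where FOXA1 and TTC6 start on opposite strands, and covered 24.8% (Abcam) and 17.7% (CST) of the 10191 bp.

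Abcam covered a median of 49.8% of a broad domain (95% interval of the median 47.3 to 52.1), against 48.9% of a narrower region. CST covered 43.5% (41.0 to 45.8) against 39.4%, and both antibodies together 37.0% (35.0 to 38.3) against 31.7%. Pooled over all bases, Abcam covered 51.0% of broad domains and 43.8% of narrower regions, CST 45.0% and 36.0%, and both 38.8% and 30.1%. The Abcam medians were thus closer than the pooled shares. Flanks of equal length had a mean of 10.9% under Abcam and 9.58% under CST beside broad domains, against 4.40% and 3.78% beside narrower regions. Across the 728 domains the Abcam and CST shares ranked alike (Spearman rho = 0.77, a description over domains that share the same libraries), whereas width and the share under both did not (rho = 0.04).

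**Figure D4:**
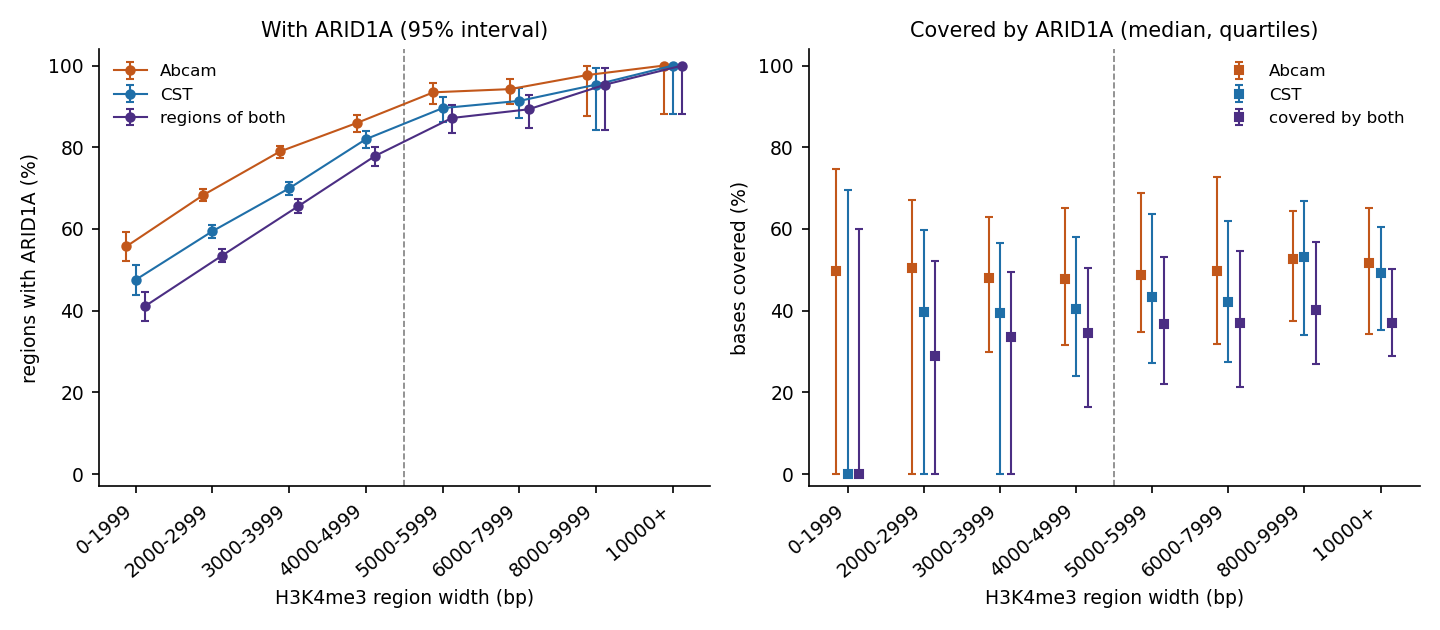
Left, share of H3K4me3 regions in each width class (bp) with an Abcam, a CST or both kinds of ARID1A region, with exact 95% intervals, and right, the median share of bases covered with quartiles and a dashed line at the 5000 bp threshold. The share with both antibodies runs from 41.1% to 100% over the classes, while median Abcam coverage stays between 47.8% and 52.6%. Median coverage by CST and by both is 0% under 2000 bp, 40.4% and 34.6% from 4000 bp, and 49.2% and 37.0% at 10000 bp or wider.

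Both antibodies covered 80% or more of 49 domains (6.73%, against 4.11% of narrower regions). Those covered throughout by both were CLDN4 (6817 bp), YWHAZ, a 14-3-3 protein gene (6568 bp), ID1, an inhibitor of bHLH factors (6165 bp), and the GASAL1 noncoding locus (5011 bp). LAMB3 had 99.1%, the circadian repressor gene PER2 98.5%, the anti-apoptotic gene BCL2L1 98.4% and S100A10 97.5%. The 7 domains of luminal markers had a median of 67.2% under both, with the lowest at 45.2% (KRT7), whereas the 12 domains of luminal transcription factors had 22.2%, from 0 at TFAP2A and OVOL1, where CST had no region, to 75.5% at KLF5. All broad domains had 37.0%. The 14 domains of ribosomal protein genes had a median of 25.9%, the 8 of SWI/SNF genes 23.8%, the 10 of tumour suppressors 24.4% and the 3 of HOX genes 14.0%. The median of the luminal markers was thus above that of all broad domains and the median of the luminal factors below it. This is a difference between few domains that was not tested, and single factors such as KLF5 lay well above.

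ARID1A coverage varied among the identity genes. Among the luminal factors, GRHL2, a grainyhead factor of epithelia, had 3 regions of each antibody that covered 83.5% (Abcam) and 66.6% (CST) of its domain, and KLF5 had 2 of each with 81.8% and 80.5%. RXRA had 2 of each with 62.1% and 63.5%. PPARG, its partner, had 1 of each with 22.8% and 26.2%. TBX3, a T-box repressor, had 1 of each with 26.6% and 13.3%, and FOXQ1, a forkhead factor, had 2 Abcam regions with 47.1% and 1 CST region with 25.7%. TFAP2A, an AP-2 factor, had an Abcam region over 26.8% and no CST region, and OVOL1 an Abcam region over 5.72% and no CST region. Coverage at these factors thus ran from nearly none to most of the domain. Every luminal marker domain had more under Abcam than GATA3, PPARG or FOXA1 did, but not more than every factor. The lowest markers were KRT19 (65.0%) and the shared KRT8 and KRT18 domain (65.4%), below the factors GRHL2 (83.5%) and KLF5 (81.8%). FGFR3, the receptor gene activated in many luminal tumours, had 1 Abcam region over 90.7% and 3 CST regions over 85.7% of its domain.

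The AP-1 genes each had 2 or 3 Abcam regions. ATF3 had 99.4% under Abcam and 45.6% under CST, JUNB 90.2% and 35.4%, and FOS 71.8% and 49.4%. FOSL2 had 67.2% and 39.3%, and JUN 51.0% and 32.3%, so Abcam coverage was the higher in all 5. In the SWI/SNF list, the ARID1A gene itself had 2 Abcam regions over 39.5% and 1 CST region over 32.6% of its domain. ARID2, the subunit that marks the PBAF form, had 1 of each over 47.0% and 22.6%. ACTB, the beta-actin gene, had 2 Abcam regions over 40.5% and 3 CST regions over 68.8%. BCL7C had 72.3% and 78.4%, whereas ARID1B and BRD9 had no region of either antibody. Among tumour suppressors, CDKN1A had 92.8% under Abcam and 82.0% under CST and CDKN1B 25.2% and 39.6%.

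Single ARID1A regions were wider in broad domains. The 953 Abcam regions there had a median of 2304 bp, against 1697 bp for those in narrower H3K4me3 regions, and the 943 CST regions 2054 bp, against 1563 bp. Of the Abcam regions 70.0% lay wholly inside a domain, 28.7% crossed an edge and 13 spanned a whole domain, and for CST 73.2%, 26.1% and 7. A region of the other antibody overlapped 87.9% of the Abcam regions in broad domains (85.7 to 89.9), against 81.0% in narrower regions, and 94.1% of the CST regions (92.4 to 95.5), against 91.3%. Among the 100 widest Abcam regions of the genome 29 touched a broad domain, and among the 100 widest CST regions 19. Over the whole lists 2.54% of Abcam and 2.86% of CST regions did. A wider region has more bases that can touch a domain, and that part was not tested.

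Position was read in the 503 domains with 1 protein-coding gene, from its most upstream TSS in the domain. These reached a median of 1630 bp upstream and 4202 bp downstream of it, and 72.6% of the width lay downstream, against 66.7% in narrower regions, where the medians were 938 and 1887 bp. Since the most upstream TSS was used, the downstream side is favoured in both classes. The TSS base was covered by Abcam in 80.1% of broad domains (76.4 to 83.5), against 67.5% of narrower regions, by CST in 72.6% (68.4 to 76.4), against 57.7%, and by both in 66.8% (62.5 to 70.9), against 52.1%. With any annotated TSS of the gene in the domain, both antibodies covered one in 73.6%, against 54.8%. In most domains of 1 gene the first TSS therefore lay under regions of both antibodies.

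Away from the TSS, ARID1A was present at more of the broad domains than of the narrower regions on both sides, counting bases beyond the edge of a region too. In bins of 250 bp around the TSS, Abcam covered 53.9% of broad domains at 1125 bp downstream, 40.6% at 2125 bp, 30.8% at 3125 bp and 24.3% at 4125 bp, against 28.6%, 7.02%, 3.54% and 2.84% of narrower regions at these distances. Upstream, Abcam was present at 48.5% of broad domains at -1125 bp, 26.8% at -2125 bp and 14.9% at -3125 bp, against 14.1%, 5.17% and 4.58% of narrower regions. H3K4me3 itself reached these upstream distances in 74.5%, 30.8% and 10.5% of broad domains, so part of the upstream Abcam lay outside the domain. At 3125 bp downstream H3K4me3 itself covered 85.3% of broad domains and 6.71% of narrower regions. The midpoint of Abcam regions lay a median of 459 bp downstream of the TSS (quartiles -312 and 2423 bp), against 155 bp (-82.0 and 429 bp) in narrower regions, and 49.0% lay within 1 kb of the TSS, against 89.8%. For CST these were 387 bp, against 113 bp, and 48.1%, against 88.0%. The midpoint was downstream of the TSS for 65.1% of Abcam regions (61.4 to 68.7), against 66.6% in narrower regions, and for 62.0% of CST regions, against 62.7%. Taken from the centre of the domain in place of the TSS, 36.1% of Abcam and 35.0% of CST midpoints lay on the 3′ side, against 22.2% and 21.8% in narrower regions. Most regions thus sat downstream of the TSS but in the 5′ part of the domain, and more lay on the 3′ side than in narrower regions. Most of the width, a median of 72.6% in broad domains, also lay downstream of the TSS.

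**Figure D5:**
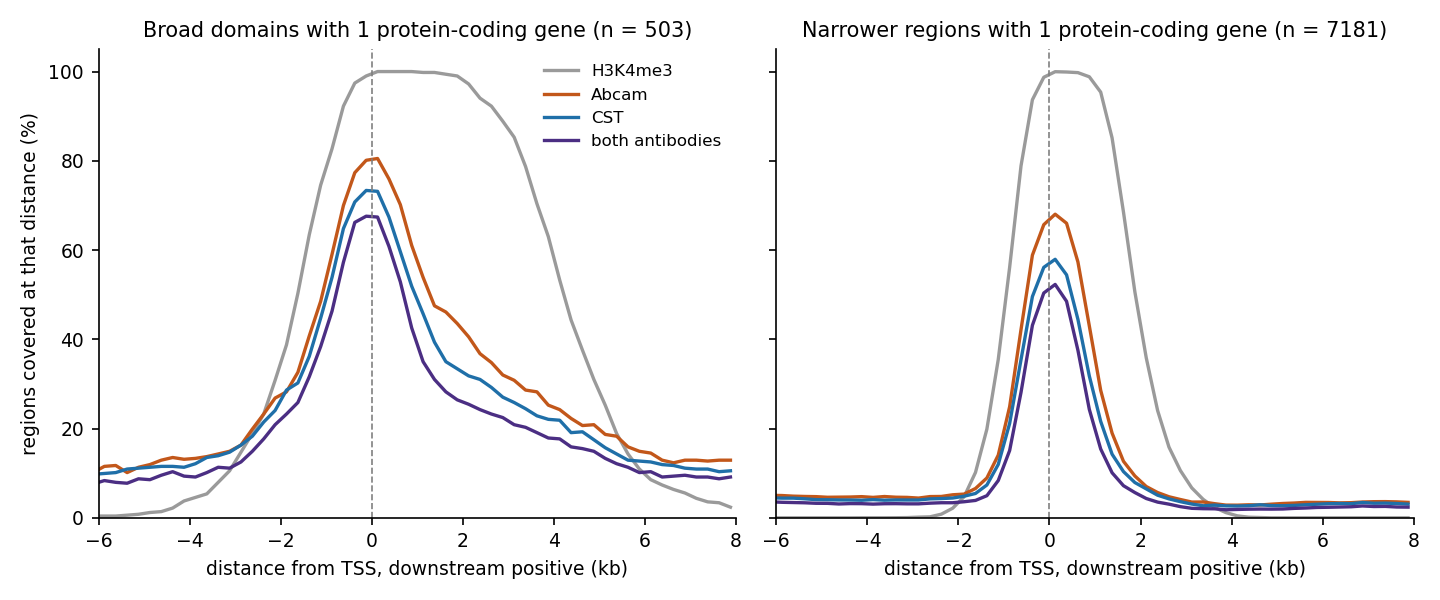
Percent of H3K4me3 regions with 1 protein-coding gene that are covered by H3K4me3, Abcam, CST and both ARID1A antibodies at each distance from the most upstream TSS (kb, downstream positive), for 503 broad domains on the left and 7181 narrower regions on the right. Distances beyond the edge of a region are counted too. Abcam is present at 30.8% of broad domains 3125 bp downstream, against 3.54% of narrower regions.

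Domains with several regions showed where the further ones lay. Of the 151 domains of 1 gene with exactly 2 Abcam regions, 101 had 1 midpoint within 1 kb of the TSS and the other over 1 kb downstream, 16 had the other over 1 kb upstream, and 19 had a region on each side beyond 1 kb. The 5′ region had its midpoint at a median of -97.0 bp and the 3′ region at 3362 bp, with a median gap of 896 bp between them. The 149 such domains of CST gave nearly the same picture, with 102 of the first kind, midpoints at -84.0 and 3170 bp and a gap of 1036 bp. A region at the most upstream TSS with a second one further downstream was thus the form of most such domains. Domains of 1 gene reach further downstream than upstream of that TSS, and the part of this room alone was not tested. The second can lie at another annotated TSS of the same gene, which was not separated here. Over all regions in domains of 1 gene, 62.3% of Abcam and 59.8% of CST midpoints lay within 1 kb of the nearest TSS.

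The 27 domains without either antibody had 8989 bp or less. The widest was that of the ribosomal protein gene RPS2 with NDUFB10 and RNF151. Others were DALRD3 with NDUFAF3 (7182 bp), STUB1, a chaperone-linked ubiquitin ligase, with JMJD8 (6689 bp), a region on the X chromosome without a gene (6580 bp), EIF4A2, a translation initiation helicase (6572 bp), the divergent collagen genes COL4A6 and COL4A5 (6543 bp), SURF1 with SURF2 (6306 bp), BCOR, a transcriptional corepressor (6130 bp), and NAP1L4, a histone chaperone (6098 bp). Of the lists, SWI/SNF had BRD9 (5925 bp) and ARID1B, the paralogue of ARID1A (5426 bp), among the 27. Both antibodies covered bases in common in 88.2% of all broad domains. They did so in the domains of 6 of 8 SWI/SNF genes, of 4 of 5 MLL/COMPASS and H3K4 demethylase genes and of 11 of 14 ribosomal protein genes. For lists of this size no difference from all broad domains was tested. EIF4A2 had ARID1A in its flanks, 20.4% of them under Abcam and 25.9% under CST, while the flanks of RPS2, DALRD3 and STUB1 had none. Absence from a list says only that no region passed the caller's threshold.

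Base composition of broad domains was close to that of other H3K4me3 regions, with a median GC content of 54.2%, against 53.8% in narrower regions. CpG dinucleotides were less dense, with a median ratio of observed to expected CpG of 0.588, against 0.639, and 0.467 in domains of 10000 bp or wider. The stretches covered by both antibodies inside broad domains stood between promoters and the rest of the domain. Their central 200 bp (903 stretches) had a median GC content of 59%, against 66% for such stretches in narrower regions (5619) and 50.5% for stretches of broad domains with neither antibody (1172). The promoter word KLF/SP lay in 35.3% of them (32.2 to 38.5), against 53.1% in narrower regions and 13.5% in the uncovered stretches, and ETS in 3.65%, against 8.40% and 1.02%. AP-1 lay in more of them, 7.09% (5.50 to 8.96), against 3.36% in narrower regions and 4.35% in the uncovered stretches. The TEAD word (GGAATG) lay in 11.4%, against 7.72% and 10.1%, and the GATA word (AGATAA) in 6.53%, against 3.51% and 10.6%. The AP-1 interval did not overlap that of narrower regions (2.91 to 3.87) but touched that of the uncovered stretches (3.26 to 5.68). Composition differs between these classes and was not adjusted for.

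Broad domains were spread over all 23 chromosomes, with the highest share of H3K4me3 regions on chromosome 8 (44 of 349, 12.6%, 9.31 to 16.6), then 6 (61 of 561, 10.9%) and 20 (29 of 288, 10.1%), and the lowest on X (9 of 225, 4.0%, 1.85 to 7.46). Copy number of the chromosomes in RT112 was not measured in these lists. Neighbouring domains lay under 20 kb apart in 27 cases and under 5 kb in 6. The closest were MED22 with RPL7A and SURF1 with SURF2, 799 bp apart on chromosome 9, of which the first had 1 CST region and the second none. The histone demethylase gene KDM6B and BCL9L each had 2 domains, 1861 and 3928 bp apart, and these neighbours were chosen after their values were seen.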

How the data were processed

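The data are CUT&RUN of RT112 cells with 2 ARID1A antibodies, an H3K4me3 antibody and IgG (12 samples in 4 groups). The authors trimmed reads with cutadapt, aligned them with bwa-mem2 to hg38 and to E. coli, removed duplicates with Picard and non-unique reads with samtools, scaled replicates by spike-in, called regions with SEACR and merged replicates with bedtools, and versions are not given in the sources used here. Lost non-unique reads can leave repeats and near-identical genes bare, and a merged region spans all the replicate regions it joins, so merging can widen it. The methods name SEACR's relaxed mode and the deposited lists are named stringent, so the threshold behind a region, and with it its width, is uncertain. The methods also state that only a top share of the called peaks was kept. They do not say whether IgG was used in the calling. The spike-in amount differs between labels and methods. Each list as deposited by the authors gives region positions only, with no count, signal or depth.

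Regions on other sequences were left out (152 Abcam, 159 CST and 14 H3K4me3). Annotation was GENCODE 44 without read-through transcripts. An overlap needed 1 bp, and words were read in the central 200 bp of stretches of at least 200 bp. Python 3.11.15, numpy 2.4.6, pandas 2.3.3 and scipy 1.17.1 were used, and interval and word code was tested on simulated data. With 1 merged list per antibody there is no replicate and no test, and exact Clopper-Pearson 95% intervals take each region or gene as independent, so they hold counting error only. Members, lists and words were chosen with earlier results of these data known. Genes were named by rule: those at the widest domains, at domains with most genes, most ARID1A regions or highest coverage by both antibodies, at the widest domains without ARID1A or without a protein-coding TSS, up to 6 members of each list with the widest domains, up to 4 in alphabetical order with narrower regions or with none, all luminal factors, and the 3 domains on each side of 5000 bp. Alternatives were other width thresholds, joined regions, other TSS and overlap definitions, wider ARID1A regions only, the domain centre in place of the TSS, and other window lengths. Some genes that these rules would name, and some of the windows read, are not reported here.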

Additional observations from a re-analysis of the deposited data

How the results depend on the processing

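Of 77 recomputed values over 19 results, 48 stayed within the interval of the reported value (for the count of domains, within 1.5 times) and 29 moved outside it. With a threshold of 4000 bp there were 1944 domains, 82.0% with both antibodies, with 1.10 Abcam and 1.07 CST regions each, and the shares in broad domains were 52.2% for AP-1 and TEAD factors, 65.2% for YAP and immediate early targets, 40.3% for ribosomal protein genes and 11.8% for all protein-coding genes. With 6000 bp there were 315 domains, 91.1% with both antibodies, with 1.52 Abcam and 1.502 CST regions each, and 1.97% of all genes, and the shares were 40% for luminal factors, 13.0% for AP-1 and TEAD factors and 11.7% for ribosomal protein genes. Joining regions under 1000 bp apart gave 27.7% multi-gene domains and 5.03% of all genes. Counting only the most upstream TSS of each gene gave a TSS in 83.5% of domains, 4.11% of all genes and 45.0% of luminal factors. After dropping ARID1A regions narrower than the median of their list, 74.0% of domains had both antibodies, with 1.06 Abcam and 0.985 CST regions each and median coverage of 46.5% (Abcam), 38.9% (CST) and 32.5% (both). From the domain centre, 36.1% of Abcam and 35.0% of CST midpoints lay on the 3′ side. In the central 100 bp AP-1 lay in 3.54% and KLF/SP in 21.5% of stretches, and in the central 400 bp in 13.9% and 51.7%, as a longer window holds more words. Other causes were not tested. Leaving out a replicate was not possible with merged lists, and no paired analysis was possible because the lists carry no replicate numbers and no test was run. Depth is unknown, so a missing region cannot be read as missing ARID1A.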
